A study of Drosophila melanogaster with 4 samples.

Results

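The Hox genes of the fly lie in 2 clusters on chromosome arm 3R, the Antennapedia complex and the bithorax complex, and hardly any of either cluster lay in regions enriched for histone H3 monomethylated at lysine 79 (H3K79me1). The members were 5 gene spans defined by their position: lab and Antp of the Antennapedia complex, and Ubx, abd-A and Abd-B of the bithorax complex. The Antennapedia complex was taken as 3R from 2480000 to 2830000 (350 kb) and the bithorax complex as 3R from 12480000 to 12810000 (330 kb), in coordinates of FlyBase release 5. Together they make up 2.44% of the arm. Of the enriched regions on 3R, 4 of 1448 in replicate 1, 7 of 1723 in replicate 2 and 10 of 1736 in the combined list touched a complex. The whole lists held 6375, 7305 and 7596 regions.

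The chromatin came from whole larvae of the 3rd instar of the wild type strain Oregon-R (Oregon-R-modENCODE), and every library had this source. Replicates 1 and 2 were immunoprecipitated with a rabbit antibody from Abcam, lot 1, whose labelled target is H3K79me1, and 2 further libraries were input DNA that was not immunoprecipitated. The antibody's reference page, as its address reads, is for the dimethylated form. Each ChIP replicate had its own list of enriched regions, and a further list combined them. No list of the inputs was used, so no background value stands beside the values below, and the read depth behind each region is unknown.

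Hox genes encode homeodomain transcription factors that give segments along the body axis their identity, and within each complex they lie in the order of the segments they act on. Each is switched on in a limited set of segments and is held silent by Polycomb group proteins in the other cells. Methylation of H3 lysine 79 is catalysed by Dot1, named grappa in the fly, and is known from the bodies of transcribed genes. A larva holds many tissues, so a few strongly marked cells and a weak mark in many cells cannot be told apart in these lists.

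The Antennapedia complex was covered over 2.26% of its length in replicate 1, 3.25% in replicate 2 and 4.34% in the combined list. The mean of the replicates was 2.75% ± 0.695 (SD, n = 2). The bithorax complex was covered over 0.845%, 1.31% and 1.54% in the same order, with a mean of 1.08% ± 0.329 (SD, n = 2). The whole of 3R was covered over 32.6%, 33.1% and 37.9%, and thus both complexes lay far below their arm in each list. The Antennapedia complex held 2, 4 and 6 regions in replicate 1, replicate 2 and the combined list, and the bithorax complex held 2, 3 and 4. No region called depleted of the mark lay in a complex in any list. Such regions were rare everywhere, with 0, 5 and 8 in the whole lists and 0, 1 and 1 on 3R. Their absence from the complexes therefore says little.

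Few 3R windows of equal length were covered as little. Windows were taken every 10 kb along the whole arm, so neighbours overlap and the complexes are among them, and their places are descriptions without a test. Averaged over the replicates, 11 of 2756 windows of 350 kb (0.399%) were covered as little as the Antennapedia complex or less. By replicate it was 9 (0.327%) and 13 (0.472%). For the bithorax complex it was 3 of 2758 windows of 330 kb (0.109%). This value depends on the replicate, with 11 windows (0.399%) in replicate 1 and 5 (0.181%) in replicate 2. Of these, 2 in replicate 1 and 4 in replicate 2 touched neither complex. With windows of all 4 large autosome arms in place of 3R, the values were higher, at 3.55% for the Antennapedia complex and 1.94% for the bithorax complex. The median window was covered over 31.5% and 31.8% for these lengths, and the windows at the lower quartile over 19.0% and 18.7%. In the mean of the replicates, 4 of 2620 and 2 of 2626 windows touching neither complex were as low. Apart from the complexes themselves, the low windows came from 3R 3360001 to 3720000 and 3R 23790001 to 24150000 for the longer window, and from 3R 23800001 to 24140000 for the shorter. The windows were not matched for gene content, since positions of other genes in release 5 were not at hand.

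**Figure D1:**
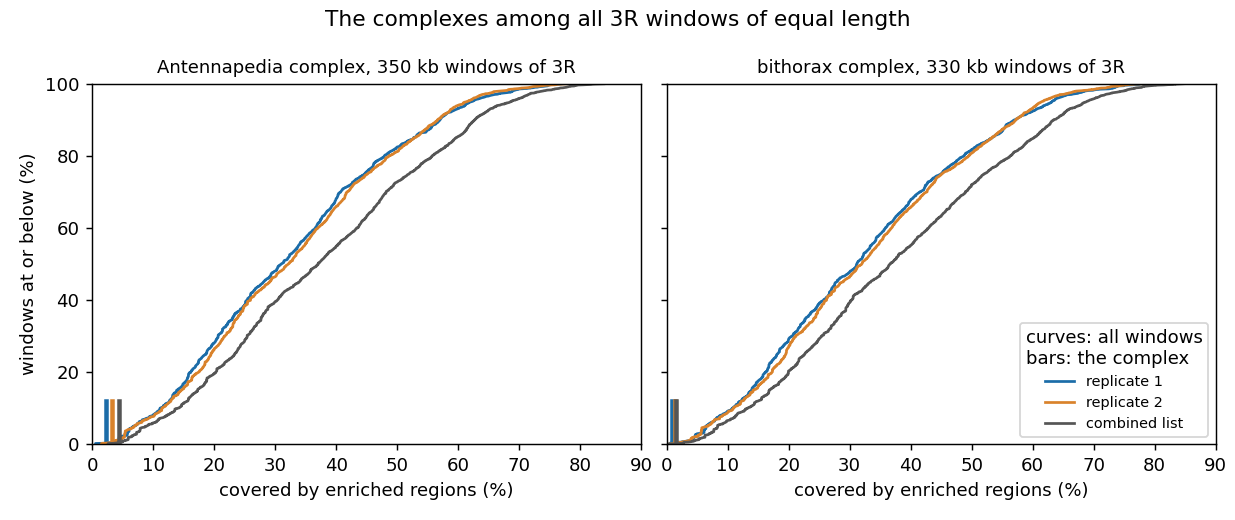
The curves give the percent of 3R windows (vertical axis) covered by enriched regions over a given percent of their length or less (horizontal axis), per list, and the short vertical bars mark the complex itself. The bars stand at 2.26% to 4.34% for the Antennapedia complex (left) and 0.845% to 1.54% for the bithorax complex (right), left of nearly all of each curve.

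Counted in bins of 10 kb, regions of any list touched 5 of 35 bins of the Antennapedia complex and 3 of 33 bins of the bithorax complex. On the whole arm 1580 of 2790 bins (56.6%) were touched.

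lab, at the low-coordinate end of the Antennapedia complex and needed for the head and part of the midgut, was the exception among the 5 spans. Its span, given only to the nearest 10 kb as 2.48 to 2.5 Mb, was covered over 30.1%, 30.3% and 30.4% in replicate 1, replicate 2 and the combined list. When regions scoring below their list's median were left out, it was 30.1% in replicate 1 and 0% in replicate 2, with a mean of 15.1%. The full share was not low for 3R, where 56% of windows of 20 kb were covered as little or less in the mean of the replicates. All of it came from a region that crossed the edge of the complex and ended at 2486024, 2486066 and 2486089 in the 3 lists. The positions given for lab are too coarse to say whether these last 6 kb lie in the gene or beside it.

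In replicate 1 and in the combined list, that region was 1 block of 13.6 and 13.8 kb with scores of 1.13 and 1.12. Replicate 2 split it into a part that ended at 2479483 and one that began at 2479807. The outer part scored 1.53, as high as or higher than 99.1% of its list, and the part inside the lab span scored 0.68, at 48.5% of its list. The list that splits the block thus has its higher score outside the complex. In the release 6 annotation of RefSeq, used for gene order alone, the genes before lab are Taf1, which encodes a subunit of the general transcription factor TFIID, CG1307, twr and agt.

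Antp, which specifies the second thoracic segment, had no region in replicate 1, 1 in replicate 2 and 3 in the combined list. Its span of 110 kb was covered over 0%, 1.57% and 4.92%. The replicates gave 0.787% ± 1.11 (SD, n = 2), so the value is smaller than its spread. Windows of 110 kb were covered as little or less in 10.9% of cases on 3R, and 11% had no region in replicate 1. The region of replicate 2 lay at 3R 2736309 to 2738039 with a score of 0.38, and the combined list had an overlapping one at 2736439 to 2738022. The other regions of the combined list, at 2734520 to 2735916 and 2742561 to 2744994, overlapped no region of either replicate. Their scores were 0.18 and 0.30, below the lower quartile of that list at 0.36.

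Ubx, which gives the third thoracic segment its identity and makes a haltere of what would be a wing, had no region in replicate 1 and 1 in each of the other lists. Its span of 78 kb was covered over 0%, 1.95% and 1.33%, and the replicates gave 0.974% ± 1.38 (SD, n = 2). On 3R, 16.6% of windows of 78 kb were covered as little or less, and 17.1% had no region in replicate 1. Widening the span by 5 kb on both sides raised the mean to 5.37%, since it then took in the region before Ubx. The lists did not place the mark at the same position. Replicate 2 had it at 3R 12548335 to 12549854 (score 0.55), the combined list at 12543930 to 12544968 (score 0.46), and no region of another list overlapped either.

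abd-A, which acts in the anterior abdominal segments, and Abd-B, which acts in the posterior abdomen and the genitalia, had no region in any of the 3 lists. They were the only such spans among the 5. A span of this kind is common on 3R at these lengths. Of 23 kb windows, the length of abd-A, 33.4% had no region in any list, and 35.6% had none in the replicates. Of 45 kb windows, the length of Abd-B, the values were 22.6% and 24.7%. Taken one by one, then, spans as empty as these were not rare on 3R, and the low place of the bithorax complex is that of the whole 330 kb.

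**Figure D2:**
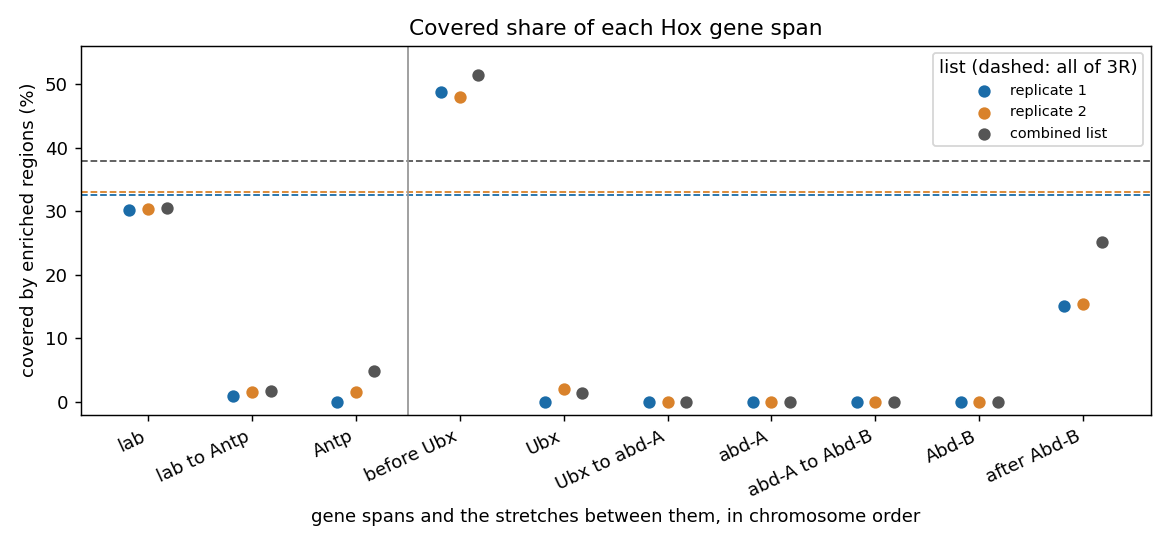
Percent of each gene span, and of each stretch between spans, covered by enriched regions in the 3 lists (points), with the Antennapedia complex left and the bithorax complex right of the vertical line and the whole of 3R as dashed lines at 32.6%, 33.1% and 37.9%. Only lab and the 2 outer margins of the bithorax complex rise above 5%, and the spans from Ubx to Abd-B lie at or near 0%.

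The stretches between the genes were also poor in regions, at most 1.68% in any list. From lab to Antp, 220 kb, coverage was 0.863%, 1.62% and 1.68% in replicate 1, replicate 2 and the combined list. By release 6 gene order this stretch holds 17 protein-coding genes. They include the Hox genes pb, Dfd and Scr, the related homeobox genes zen, zen2, bcd and ftz that act in the early embryo, and cuticle protein genes of the Ccp84A group. Its lone region found in both replicates was at 3R 2635124 to 2637021 in replicate 1 (score 0.49) and 2635084 to 2637160 in replicate 2 (score 0.50). Which gene it lies in was not examined, as no release 5 gene positions were at hand for this stretch.

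In the bithorax complex the stretches from Ubx to abd-A (73 kb) and from abd-A to Abd-B (97 kb) had no region in any list. These stretches are known for the regulatory domains that set the segments in which the 3 genes are expressed. By release 6 gene order they hold 2 protein-coding genes (CG31275 and Glut3) and 1 (MSAmiP).

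Together these spans made up a single unmarked stretch. From 3R 12549855 to 12804209, 254 kb, no list had a region, and it took in the end of Ubx and all of abd-A and Abd-B. It ranked 2 among 1660 such stretches on 3R, whose median was 1.30 kb and whose longest was 334 kb. In replicate 1 alone it reached from 12480975 to 12804209, 323 kb, with all 3 genes inside, and ranked 2 of 1444. In replicate 2 it was 255 kb long and ranked 4 of 1717. The replicates differ here by the 1 region in Ubx.

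**Figure D3:**
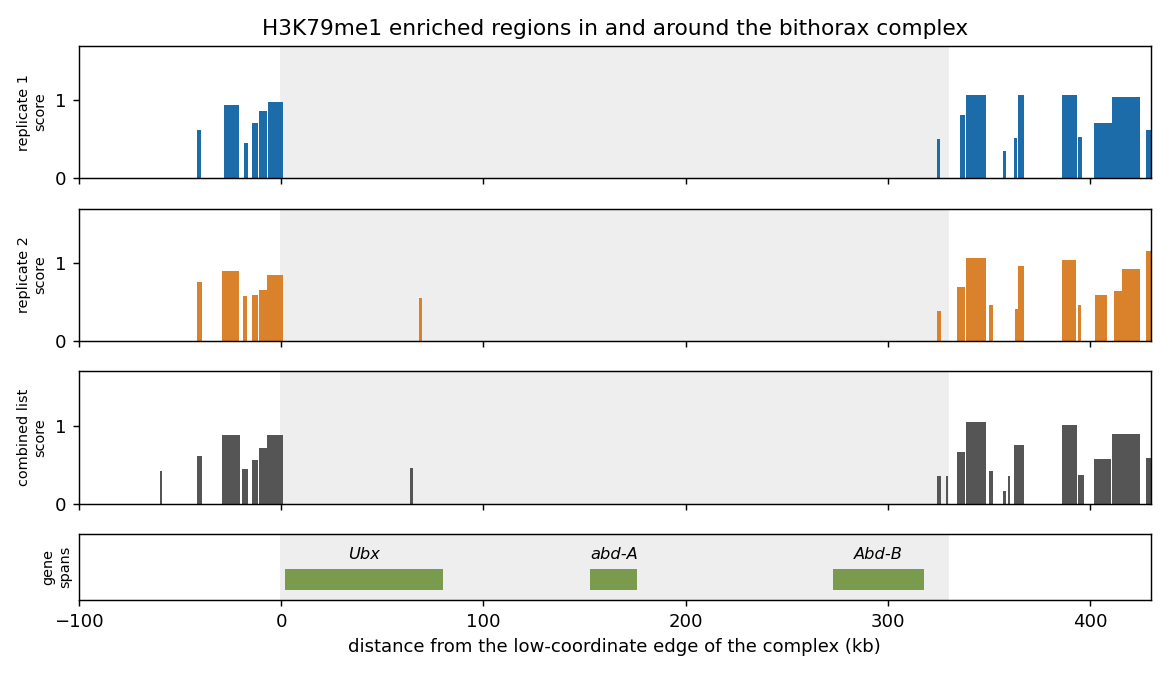
Enriched regions in the bithorax complex (grey) and 100 kb on each side, by distance from its low-coordinate edge (horizontal axis, kb), with the score of each region as its height (no unit) and the gene spans below. In the grey area the regions lie at its margins, apart from 1 in Ubx in replicate 2 and 1 elsewhere in Ubx in the combined list.

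Taken over all lists, the Antennapedia complex was broken into more stretches. From 3R 2486090 to 2635037, 149 kb lay free of regions in all lists, at rank 22 on the arm. From 2744995 to 2889882 it was 145 kb, at rank 23, of which 85.0 kb lay inside the complex and Antp and the rest beyond it. Between them, 92.3 kb from 2642187 to 2734519 ranked 43. Stretches of at least 100 kb without a region in any list numbered 39 on 3R. In replicate 1 alone, a stretch from 2637022 to 2889993, 253 kb, held all of Antp and ranked 5 of 1444. Of it, 193 kb lay inside the complex. In replicate 2 the longest that touched the complex was 152 kb and ranked 23 of 1717. The breaks within Antp thus came from replicate 2 and the combined list.

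**Figure D4:**
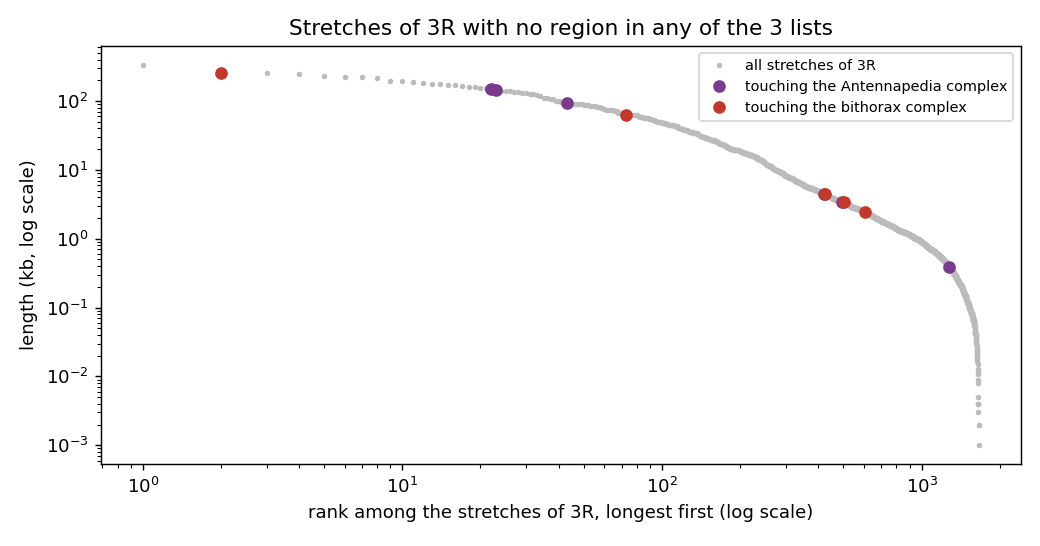
Length of each stretch of 3R without a region in any list (vertical axis, kb, log scale) against its rank from the longest (horizontal axis, log scale), with those that touch a complex in colour. The stretch over abd-A and Abd-B is at rank 2 with 254 kb, and those of the Antennapedia complex over 100 kb are at ranks 22 and 23.

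A region crossed the low-coordinate edge of both complexes in every list. The borders differed in the coverage outside and in the distance to the nearest region. On the side of Ubx, regions covered 24.96%, 26.2% and 28.2% of the 100 kb outside the bithorax complex in replicate 1, replicate 2 and the combined list. The last of them ended 1.03, 1.04 and 0.971 kb before the Ubx span, which is given to the nearest kb. On the side of Abd-B, 51.6%, 50.1% and 58.5% of the next 100 kb was covered, and the nearest region began 6.21, 6.50 and 6.36 kb after the Abd-B span. The genes next to the complex are modSP before Ubx and VhaM9.7-d after Abd-B in release 6 order.

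Around the Antennapedia complex, the marked sequence did not meet the gene spans in this way on both sides. Before lab, 7.54%, 7.39% and 7.72% of 100 kb was covered, all of it by the block that reaches the lab span, which replicate 2 has in 2 pieces. Before that block no list had a region for the rest of these 100 kb. After Antp, 33.1%, 34.2% and 35.9% of 100 kb was covered, and the first region began 60.0, 59.9 and 59.9 kb beyond the span. No test was made of these differences between the borders.

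**Figure D5:**
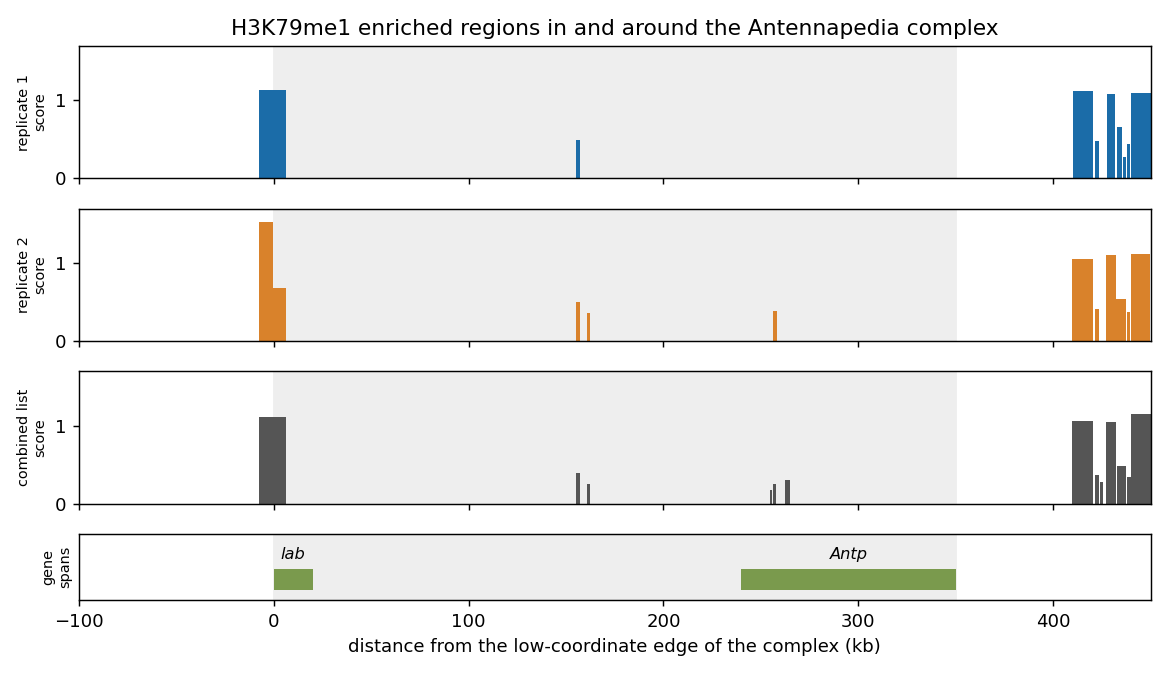
Enriched regions in the Antennapedia complex (grey) and 100 kb on each side, drawn as in the map of the bithorax complex. The block at the left edge is the region that reaches the lab span, with scores of 1.13, 0.68 and 1.12 there, and the remaining regions inside score 0.18 to 0.50.

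Regions that lay wholly within a complex were narrow and low in score. They numbered 2 in replicate 1, 5 in replicate 2 and 8 in the combined list, and each scored below the median of its own list (0.75, 0.69 and 0.51). Below the lower quartile were 2, 4 and 6 of them. The widest were 1898, 2077 and 2434 bp, against list medians of 3617, 3202 and 3182 bp. Set against the regions of at most 2.5 kb in the same list, 2 of 2, 3 of 5 and 4 of 8 were below the median, so their scores were not uniformly low for their width. The score is the authors' own value for each region and is read here within a list only.

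Inside the complexes the length covered in both replicates was a smaller part of that covered in either than along the arm. This difference was not tested. The Jaccard index, the covered length shared by both replicates over the length covered by either, was 0.697 in the Antennapedia complex, 0.537 in the bithorax complex and 0.854 on 3R. Without the regions that cross an edge it was 0.359 and 0.417. The first pair of values rests on 11360 and 4630 bp covered in either replicate, so that single regions decide them. All 7922 bp of replicate 1 in the Antennapedia complex were also covered in replicate 2, which is 69.7% of the 11360 bp there. In the bithorax complex the shared length was 89.1% of that of replicate 1 and 57.5% of that of replicate 2. On 3R these values were 92.8% and 91.4%, so replicate 1 shared more of its length in the Antennapedia complex than along the arm. Regions within the complexes found in 1 list alone numbered 1 of 5 in replicate 2 and 4 of 8 in the combined list. The share of such regions along 3R was not computed, so whether these counts are high is unknown. The combined list also had such regions in the flanks, at 3R 2904277 to 2905644, 12419956 to 12420965 and 12839538 to 12840580.

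The region shared by all lists at the Abd-B end of the bithorax complex lay at 3R 12804210 to 12806025 in replicate 1, 12804501 to 12806345 in replicate 2 and 12804358 to 12806343 in the combined list. Its scores were 0.51, 0.38 and 0.36. This region and the one between lab and Antp near 2635124 were the only ones wholly within a complex that both replicates held.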

How the data were processed

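Chromatin immunoprecipitation and sequencing of whole larvae gave 4 libraries, 2 ChIP replicates and 2 inputs. Whether the replicates are separate cultures is not stated in the labels. Bowtie 0.12.7 is named in the submitters' processing notes, and the build is FlyBase release 5 per the file headers. The authors deposited enriched and depleted regions with a score for each. Region caller, threshold, use of the inputs and the way the lists were combined are not given in the sources used here. Read depth is unknown, so no counting interval is given.

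The complexes, the members and the spans were chosen with earlier results of these data known. Enriched regions were joined within a list and covered base pairs counted per span, with 1 bp as the least overlap. Windows of each span's length were started every 10 kb along 3R. Means and SDs are over the 2 ChIP lists. No test was made, as there is 1 group with n = 2. All 5 members were named, with the regions in each span, the edge regions and the longest stretches. The 5 symbols all matched the RefSeq release 6 table, which served for gene order only. Interval code was checked against base-by-base masks on 20 simulated arms. Alternatives were another list, each replicate left out, a score or width minimum, merging within 1 kb, other windows and edges. Python 3.11.15, numpy 2.4.6, scipy 1.17.1 and matplotlib 3.10.9 were used.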

Additional observations from a re-analysis of the deposited data

How the results depend on the processing

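The alternative without the regions that cross an edge was added after seeing the data. Among 103 alternative values, 49 moved by more than the replicate SD (counts of regions, by more than 1.5 times). Of these, 22 of 50 were for gene spans. Values without 1 replicate are not counted and are given as ranges, since a mean of 2 replicates lies within 1 SD of each by construction (the places among windows are not such means). The Jaccard index has no SD. Its 95% binomial interval treats base pairs as independent, so 6 of 8 values outside it say little. Values are given for the Antennapedia complex, then the bithorax complex. Covered shares were 4.34% and 1.54% in the combined list, 0.861% and 0.293% with a score minimum (the median of the list), 2.02% and 0.293% with a width minimum of 2 kb, and 1.03% for the first without edge regions. Leaving out 1 replicate gave 2.26% to 3.25% and 0.845% to 1.31%. Regions numbered 6 and 4 in the combined list, 0.5 and 1 on average with the score minimum, and 1.5 and 1 with the width minimum. The bithorax complex held 1.5 without edge regions or with at least 50% of a region inside. The minimums, the edge rule and the 50% rule remove regions by construction. Why the combined list differs was not tested.

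The windows covered as little or less made up 0.290% and 0.508% with the score minimum, 0.153% for the first among windows touching neither complex, and 3.55% and 1.94% over the 4 large autosome arms. Without 1 replicate they were 0.327% to 0.472% and 0.181% to 0.399%. The longest stretch in the Antennapedia complex (171 kb in the mean of the replicates) was 347 kb with the score minimum and 268 kb with the width minimum, and 149 to 193 kb without 1 replicate. In the bithorax complex (289 kb) it was 255 to 323 kb. The mean score over covered bp (0.77 and 0.61) was 0.46 and 0.48 without edge regions. For the bithorax complex it was 0.48 in the combined list and 0.91 with either minimum. For the Antennapedia complex no value could be had with the score minimum, since replicate 2 then has no region there. The Jaccard index was 0 and 0.986 with the score minimum, 0.740 and 0.986 with the width minimum, and 0.359 and 0.417 without edge regions. Of the gene spans, lab was covered over 15.1% with the score minimum (30.1% and 0% by replicate) and 36.3% when widened by 5 kb on both sides. Ubx reached 5.37% when widened. Antp was covered over 4.92% in the combined list, and Antp and Ubx over 0% with either minimum. abd-A and Abd-B had 0% in each of these settings.

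No paired analysis was possible because the inputs had no list here and no groups were compared. The depth is unknown, and a stretch without regions shows no more than that no enrichment was called there. Sequence in which tags cannot be placed was not taken out.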
